A study of Mus musculus with 6 samples.

Results

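The ribosomal DNA placed on mouse chromosome 17 was examined in germinal centre B cells from the spleens of C57BL/6 mice. The members were the CpG positions between 39842000 and 39850000 on chromosome 17 (GRCm38) that had a coverage of at least 10 reads in all 6 libraries. There were 771 of them, 386 on the strand marked F and 385 on the strand marked R, out of 1463044 such positions in the genome. The 2 groups were 3 libraries labelled TET2 knockout (KO) and 3 labelled wild type (WT). The labels do not say how the allele was made, how old the mice were, or whether a library came from 1 animal or a pool. The p-values therefore speak at most to the spread among the libraries, part of which may be technical. Those of the moderated tests also draw on the spread at other features of the genome, as described below. Methylation was read by enhanced reduced representation bisulfite sequencing, a method that reads CpG-rich fragments cut by a restriction enzyme, and each level is the percent of reads that kept their C.

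Ribosomal DNA lies in tandem repeats on several chromosomes, and RNA polymerase I transcribes each active repeat into a precursor that is cut into the ribosomal RNAs. Some copies are kept silent in mammalian cells, and silent copies are known to carry methylated CpGs. Tet2 oxidises 5-methylcytosine, and bisulfite does not separate the methyl form from the hydroxymethyl form. The repeats share most of their sequence, so reads of many copies can fall on the same placed unit. A level here is thus an average over copies and cells, and a change in the share of methylated copies per cell cannot be told apart from a change in the mix of cells.

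Coverage summed over the listed CpG positions was 174375503 to 203863392 per library, a mean of 100.6 to 125 per position. A read that spans several CpGs counts at each of them, so these sums are not numbers of reads. Within Tet2, 6 CpG positions on chromosome 3 from 133486189 to 133486297 were listed in all WT libraries with 32 to 168 reads and in no KO library. The mean level over all shared CpGs was 33.8% ± 0.1504 in KO and 33.0% ± 0.413 in WT (SD, n = 3 each), with every KO library above every WT library. Mitochondrial CpGs were at 0.121% to 0.376%. Ends of the B-cell genes Cd79b, Pax5 and Bcl6 had group means of 1.27% or less in both groups, but so did those of the T-cell genes Cd3d and Cd4 and the erythroid gene Klf1, so these markers do not show which cells were present.

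The ribosomal unit was among the most heavily read parts of the genome. It took 3.47%, 3.51% and 3.21% of the summed coverage of KO replicates 1, 2 and 3, and 3.38%, 3.38% and 3.72% of that of WT replicates 1, 2 and 3. Coverage divided by the library's mean, here called relative coverage, had a median of 39.8 over the members and reached 296 at position 39846122 on strand F. That position had 37140, 32569 and 28233 reads in the KO libraries and 33556, 48672 and 39802 in the WT libraries. The next 3 in coverage were 39843093, 39843104 and 39843137 on strand R, at 231 to 232 times the mean. Of the positions above 20 times the mean, 442 were members and 174 lay elsewhere.

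Coverage was not even along the unit. The members ran from 39843014 to 39848810, a stretch of 5797 bp, and the nearest other shared CpGs of the chromosome lay 46613 bp before and 5146 bp after it. In all libraries 456 members (59.1%) had at least 1000 reads, 174 had under 100 in every library, and 141 fell between. At the low edge, 60 members had 10 to 14 reads in their shallowest library, and another 263 positions of the window were listed in some libraries but not all, with median coverages of 16.0 to 21.0. The annotation places Rn18s-rs5, a sequence related to the 18S ribosomal RNA gene and classed as a pseudogene, from 39846354 to 39848202. It also places the long non-coding RNA gene AY036118 from 39848112 to 39898385. Before Rn18s-rs5 lay 551 members, within it 104 and after it 116.

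**Figure D1:**
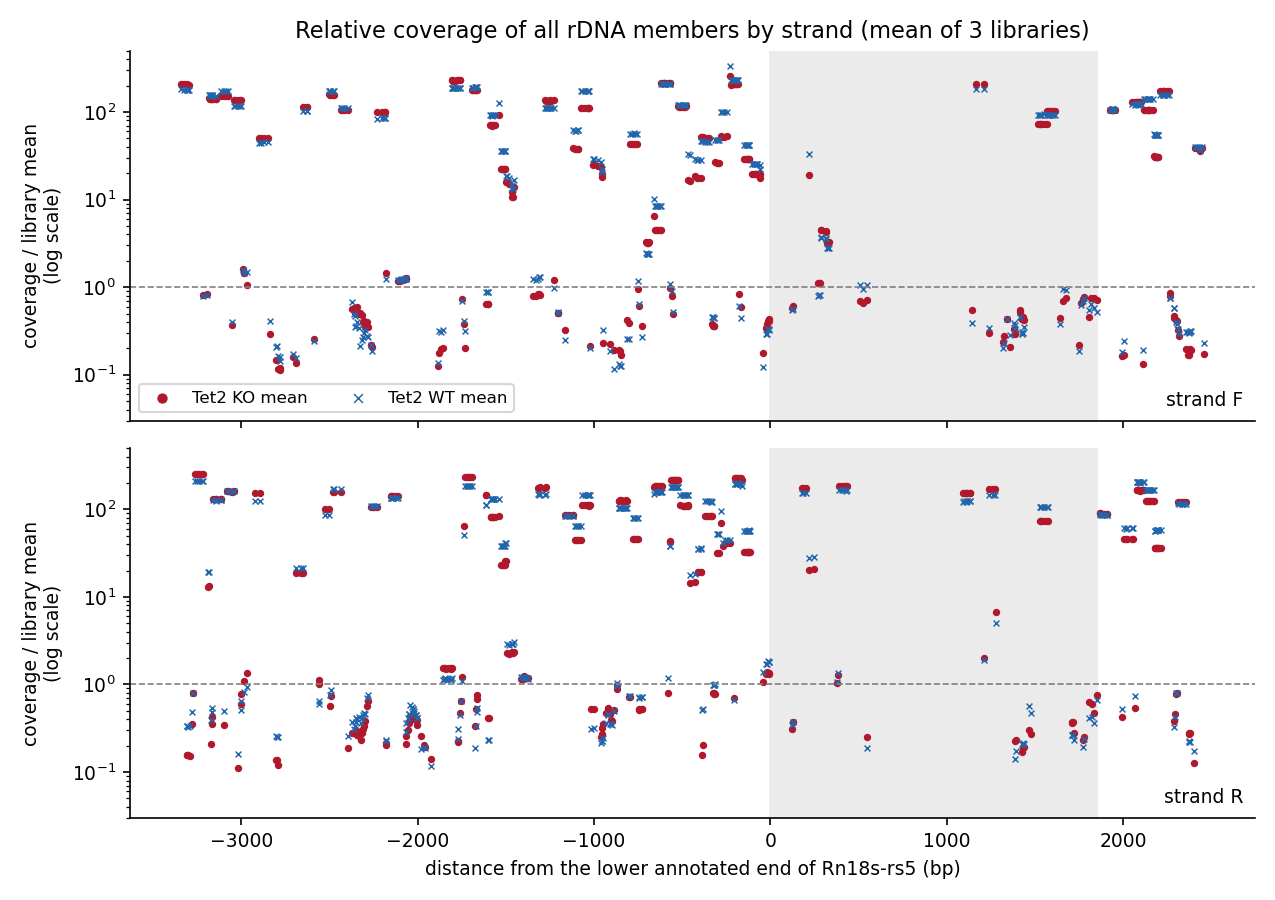
Relative coverage (coverage divided by the library's mean, log scale) of all 771 members, against distance in bp from the lower annotated end of Rn18s-rs5, for strand F above and strand R below; each point is the mean of 3 libraries, red circles KO and blue crosses WT, with Rn18s-rs5 shaded and the library mean dashed. Heavily read blocks up to 296 times the mean alternate with positions at or under 1 in both groups.

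The level of methylation was partial and much alike from block to block. At the 456 positions with at least 1000 reads the quartiles over all libraries were 17.1%, 19.7% and 22.4%, and 430 of them (94.3%) lay between 10% and 30%. Only 5 were under 5% and 3 over 50%. The median SD over the 6 libraries was 2.39 points at these positions and 12.6 points at the less covered members. At 12219 CpGs elsewhere with the same level it was 9.67 points, and at the 169 of them with at least 200 reads in all libraries it was 6.11. The deeply read ribosomal positions varied least of these sets.

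**Figure D2:**
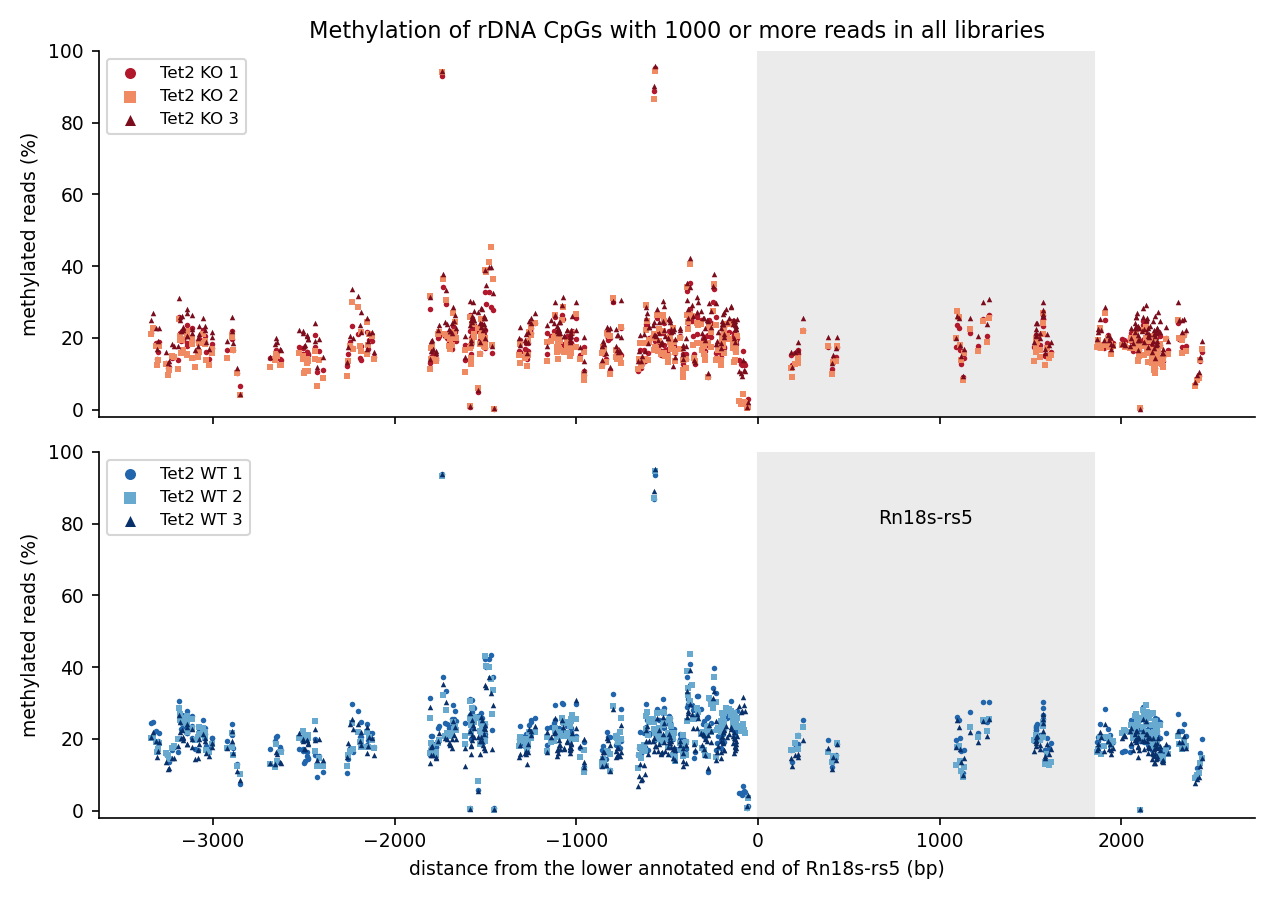
Percent of reads methylated at the 456 members with 1000 or more reads in all libraries, against distance in bp from the lower annotated end of Rn18s-rs5 (shaded), with KO libraries above and WT libraries below; each point is 1 position in 1 library. Most points form a band between 10% and 30%, with 3 positions over 50% and 5 under 5%.

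The first comparison asked whether the ribosomal unit differed in methylation without Tet2. The mean over the 771 members was 21.1%, 18.3% and 22.9% in KO replicates 1, 2 and 3, and 23.6%, 24.0% and 20.5% in WT replicates 1, 2 and 3. The groups overlapped, with WT replicate 3 below KO replicates 1 and 3. The group means were 20.8% ± 2.29 in KO and 22.7% ± 1.95 in WT (SD, n = 3 each), a difference of -1.92 points (exact two-sided permutation p = 0.3, where 3 against 3 cannot go below 0.1). At the 456 deeply read positions the levels were 18.98%, 17.98% and 22.01% in KO and 22.1%, 21.5% and 19.4% in WT, a difference of -1.34 points (exact permutation p = 0.4). Weighted by reads the difference was -1.33 points (exact permutation p = 0.4).

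The sign was the opposite of that seen over the genome as a whole, though not beyond the spread between libraries. The KO mean was the lower one at 550 members (71.3%) and at 364 of the deeply read positions (79.8%), with a median difference of -1.32 points at these. Over all tested CpGs of the genome it was the lower one at 41.1%, with a median difference of 1.69 points. CpGs elsewhere at the same level averaged 20.9% ± 0.206 in KO and 18.4% ± 1.35 in WT (SD, n = 3 each), with no overlap. Positions of one library are not independent of each other, so these counts carry no test.

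Libraries differed from each other along the whole unit, within groups as well as between them. KO replicate 3 was above KO replicate 1 at 434 of 456 deeply read positions and above KO replicate 2 at 438. WT replicate 1 was above WT replicate 3 at 404. Between any 2 libraries the levels of these positions correlated with a Pearson r of 0.864 to 0.974, a correlation over CpGs that share reads and are not replicates. Among the positions at 10% to 30% it was 0.521 to 0.925.

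**Figure D3:**
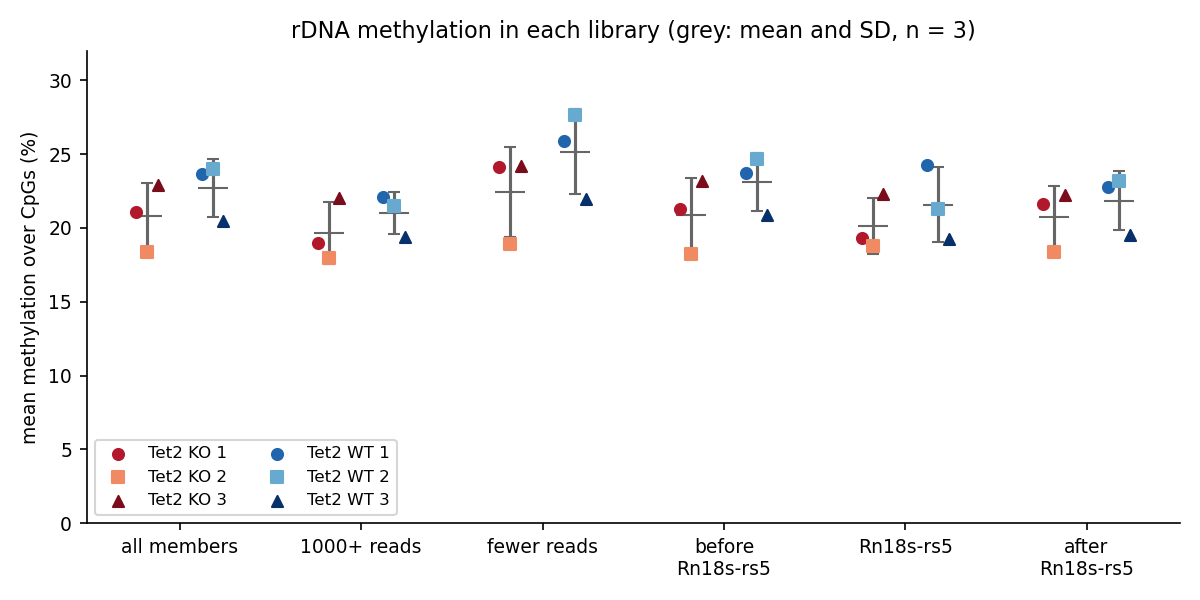
Mean percent methylation in each library over all 771 members, the 456 with 1000 or more reads, the remaining 315, and the 3 segments, with KO libraries (red) left of WT libraries (blue); points are libraries and grey bars are the mean and SD of 3. In every class the highest KO library lies above the lowest WT library.

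All 3 segments showed the same order of groups with overlap. Before Rn18s-rs5 the KO libraries were at 21.3%, 18.3% and 23.2% and the WT libraries at 23.7%, 24.7% and 20.9%, a difference of -2.18 points. Within Rn18s-rs5 they were at 19.3%, 18.8% and 22.3% in KO and 24.2%, 21.3% and 19.2% in WT, a difference of -1.44 points. After it they were at 21.7%, 18.4% and 22.2% in KO and 22.7%, 23.2% and 19.5% in WT, a difference of -1.07 points. No segment passed (exact permutation p = 0.3, 0.6 and 0.5, adjusted p = 0.6 each), and the difference after Rn18s-rs5 became 0.122 without KO replicate 2.

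Nor did any of the 6 tiles of 1 kb that cover the members pass the test over all 83114 tiles of the genome (limma-moderated quasi-binomial test). Across the genome 0.685% of tiles were called higher in KO and 0.00241% lower. The tile from 39846001 to 39847000, which holds the lower end of Rn18s-rs5, had the smallest p. Its reads were 18.7%, 16.8% and 21.2% methylated in KO and 21.8%, 22.7% and 18.7% in WT (adjusted p = 0.417 by the moderated test; 0.871 by limma on log2 ratios). It was the only tile of the 6 with an unadjusted p under 0.05, and limma gave 0. The other 5 tiles differed by -0.345 to -1.60 points, all with KO and WT libraries interleaved.

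Few single positions separated the groups in level. In level, 31 members (4.02%) had every KO library below every WT library, and 13 (1.69%) had the reverse, where the genome had 2.26% lower and 3.96% higher. Among the deeply read positions 7 of 456 were lower and 0 higher. The position with the smallest p of all, 39846005 on strand R, lies at -349 bp from the lower end of Rn18s-rs5. It was at 12.8%, 13.6% and 13.2% in KO and 16.3%, 18.9% and 16.8% in WT, and the groups did not overlap. The difference of -4.15 points had an adjusted p of 3.6e-05 by the moderated test but was under the 10 points that a call requires. By limma on log2 ratios, which called 0 CpGs in the whole genome, the adjusted p of this position was 0.937. Position 39843503 on strand F was at 6.45%, 4.13% and 4.38% in KO and 7.57%, 10.2% and 8.52% in WT, again without overlap. Position 39848448 on strand R, at 17.1%, 13.6% and 19.5% in KO and 20.7%, 23.9% and 17.6% in WT, had a similar p with overlapping groups.

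The single-CpG test called 11 members lower and 0 higher in KO, out of 763 tested at a mean level of 5% to 95%. In the genome 0.0105% of tested CpGs were called lower and 0.284% higher, and the 11 were among 55 lower calls. Without the minimum difference 46 of the 763 tested members had an adjusted p under 0.05, 45 of them lower, against 0.302% of tested CpGs. By limma on log2 ratios the lowest adjusted p of any member was 0.674, in a test that called 0 CpGs in the whole genome. All 11 called members had overlapping groups. They fell in 2 clusters on strand F, both before Rn18s-rs5, and in both the order of the 6 libraries was not that of the genotypes.

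The first cluster held 7 CpGs in 40 bp, from 39845694 to 39845733. Their mean level was 26.1%, 3.79% and 18.9% in KO replicates 1, 2 and 3, and 12.4%, 45.1% and 42.95% in WT replicates 1, 2 and 3. KO replicate 2 was lowest, WT replicates 2 and 3 highest, and WT replicate 1 lay below 2 KO libraries. The group means were 16.3% ± 11.4 in KO and 33.5% ± 18.3 in WT (SD, n = 3 each), a difference of -17.2 points (exact permutation p = 0.3). Position 39845733 had the smallest p of the 11, at 24.7%, 2.28% and 17.5% in KO and 12.6%, 45.1% and 43.8% in WT (adjusted p = 6.1e-05, moderated quasi-binomial test).

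The same 7 CpGs read on the other strand did not show this pattern. On strand R they were at 13.6%, 14.5% and 16.6% in KO and 18.1%, 15.9% and 9.98% in WT, a difference of 0.248 points (exact permutation p = 0.9). These strand R positions had mean coverages of 13760 to 26226 reads, where the strand F positions had 410 to 1468. Relative coverage of the called strand was 4.46, 6.39 and 3.37 in KO and 4.39, 11.1 and 10.7 in WT, highest in the 2 WT libraries with the highest levels, and its part in the levels was not tested. The neighbouring strand F block from 39845736 to 39845784, with a relative coverage of 192 to 231, was at 20.04%, 19.6% and 23.1% in KO and 21.6%, 24.7% and 19.6% in WT.

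The second cluster held 4 called CpGs in 29 bp, from 39846249 to 39846277, the last at -77 bp from the lower end of Rn18s-rs5. Their mean was 12.9%, 1.84% and 10.3% in KO and 4.90%, 22.7% and 28.4% in WT, again with KO replicate 2 lowest, WT replicate 1 next and WT replicates 2 and 3 highest. The difference was -10.3 points (exact permutation p = 0.3). No strand R member covered these CpGs. Mean coverage was 1834, 2856 and 2591 reads in KO and 2801, 3495 and 3103 in WT.

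**Figure D4:**
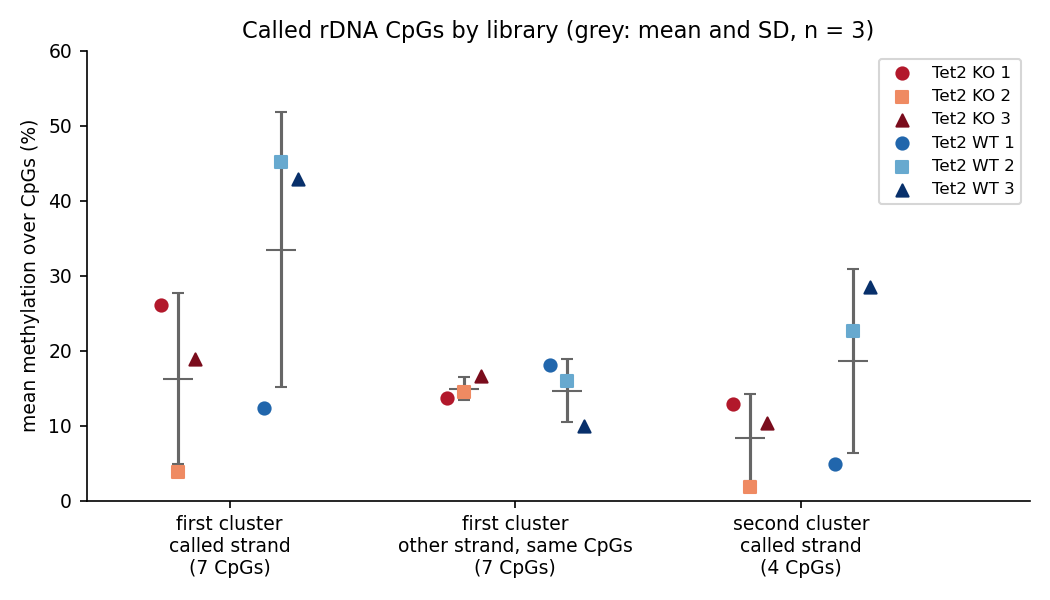
Mean percent methylation in each library over the 7 called CpGs of the first cluster, the same 7 CpGs on the other strand, and the 4 called CpGs of the second cluster, with KO libraries (red) left of WT libraries (blue); points are libraries and grey bars are the mean and SD of 3. WT replicate 1 lies among the KO libraries in both clusters, and the other strand spans only 9.98% to 18.1%.

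The 11 calls rested on the dispersion, the ratio of the spread between libraries to that of read counting, which the test draws towards the value of all CpGs. The called positions' own dispersions were 68.5 to 208, and the test used 8.76 to 14.9. The median own dispersion was 44.7 at deeply read ribosomal positions and 5.01 over all tested CpGs. With each CpG's own dispersion the 11 had unadjusted p-values of 0.0923 to 0.208 and 0 members were called, as by limma on log2 ratios (adjusted p = 0.823 to 0.877). In the whole genome own dispersions called 35 of 525213 tested CpGs and limma 0, where the main test called 1544. The 0 calls among the members are thus not particular to the ribosomal DNA. The lowest adjusted p of any member, called or not, was 0.468 with own dispersions and 0.674 by limma. Position 39846005 had an unadjusted p of 0.00745 with its own dispersion. An unadjusted p under 0.05 was found at 30.5% of ribosomal CpGs and 8.70% of tested CpGs by the moderated test, and at 4.06% and 7.01% with own dispersions; limma found it at 2.88% and 6.49%. Without KO replicate 2 the calls were 2, without WT replicate 2 they were 5, and without WT replicate 3 they were 7. The genome had 630, 3113 and 3667 calls in these settings, both directions together.

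Among the heavily read stretches, the one that held the second cluster varied most between libraries. Members were joined into 210 runs where neighbours on one strand lay within 60 bp and had coverages within a factor of 1.25. In 85 runs every CpG had at least 1000 reads, and the highest and lowest library differed by a median of 5.69 points. Only 2 of these 85 spanned more than 10 points, while thinly read runs spanned up to 96.3. One was the strand F run from 39846249 to 39846297, with a range of 20.5 points, and the other that from 39844886 to 39844893, with 10.3. A typical run, the 12 CpGs on strand F from 39843169 to 39843276, was at 19.6%, 17.5% and 22.8% in KO and 23.1%, 24.2% and 19.9% in WT.

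The strands of a CpG usually differed by few points where both were deeply read. Of 118 such CpGs, 107 differed by 5 points or less, with a median of 1.71. Strand R was the higher one at 86 of them, with a median of strand F minus strand R of -1.33 points, and the levels of the strands had a Pearson r of 0.174 across these CpGs, which are not replicates. Where 1 strand had fewer than 1000 reads, 30 of 81 did so, and where both had fewer, 19 of 63. The largest differences were at 2 neighbouring CpGs. Position 39845785 on strand R was at 95.2%, 94.3% and 95.9% in KO and 93.6%, 94.7% and 95.1% in WT, while its strand F partner averaged 18.9%. Position 39845783 on strand R was at 88.8%, 86.5% and 90.1% in KO and 86.7%, 87.1% and 89.0% in WT, with a strand F partner at 22.2%. Coverage on strand R there was about 40 times the library mean, in a run of 2 CpGs next to blocks read much more deeply.

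A few other positions stood at the ends of the scale in every library. Position 39844615 on strand R was at 92.9%, 94.2% and 94.3% in KO and 93.8%, 93.4% and 93.9% in WT, the third of the deeply read positions over 50%. Position 39848454 on strand F was near 0, at 0.384%, 0.325% and 0.249% in KO and 0.202%, 0.264% and 0.4003% in WT, over 8744 to 20484 reads. Position 39844767 on strand R was at 0.777%, 0.940% and 0.908% in KO and 0.799%, 0.453% and 0.581% in WT. Only that strand of the CpG was near 0, as its strand F partner, 39844766, averaged 28.5%. Position 39844899 on strand F was at 0.792% or less. KO and WT libraries overlapped at each of these positions.

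At low depth the values scattered widely. Position 39845005 on strand F, at about the library mean coverage, was at 96.8%, 45.8% and 84.4% in KO and 100%, 71.6% and 75% in WT. Position 39845189 on strand F had 4.94% of 81 reads methylated in KO replicate 1 and no methylated read in the other 5 libraries, where 0 of 10 reads, the fewest, allows a level of up to 30% by counting error alone. The 2 least covered members, 39843573 on strand F and 39844431 on strand R, had 10 to 23 reads each. Their levels ran from 0% to 25% in KO and 21.4% to 64.7% in WT at the first, and from 0% to 50% in KO and 0% to 57.1% in WT at the second. The last member, 39848810 on strand F, ran from 8.33% to 42.1% in KO and 0% to 40.5% in WT, while the first, 39843014, was at 21.2%, 21.0% and 24.9% in KO and 24.45%, 20.2% and 20.65% in WT over 16051 to 30824 reads.

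Around the lower end of Rn18s-rs5, the positions nearest to it were thinly read. From 250 bp before it to 50 bp after it there were 58 members, at mean levels of 0.849% to 36.2%, among them the most covered position of the unit and the second cluster. The 8 nearest lay at -21 to -8 bp from it, 4 on each strand. On strand R they had 40 to 273 reads and levels of 11.3% to 28.6% in KO and 12.9% to 25.15% in WT. On strand F, with 13 to 73 reads, levels ran from 3.85% to 35.1% in KO and 0% to 35.7% in WT. None of the 8 was called (lowest adjusted p = 0.778, moderated quasi-binomial test).

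Reads with neither C nor T, which at a CpG show a base other than either state, were rare but concentrated. The median share at deeply read positions was 0.00832%, and only 4 of them averaged over 0.5%. Position 39845597 on strand F had the most, 5.87%, 6.25% and 5.95% in KO and 6.58%, 5.13% and 6.05% in WT. The others were 39844850 on strand R (2.95% to 5.31% over the 6 libraries), 39844814 on strand F (3.11% to 4.42%) and 39845517 on strand R (0.610% to 1.39%). Each library carried these other bases at a similar share, with KO and WT interleaved.

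The second comparison asked whether the unit took a different share of coverage without Tet2. Mean relative coverage was 66.9, 68.0 and 61.7 in KO replicates 1, 2 and 3, and 65.7, 66.6 and 71.9 in WT replicates 1, 2 and 3. The groups overlapped, with a log2 fold change of -0.06 (exact permutation p = 0.6). The median over the members was 36.1, 31.99 and 23.6 in KO and 37.0, 51.2 and 42.6 in WT, without overlap (log2 fold change -0.52, exact permutation p = 0.1, the smallest possible). Taken apart, the medians of the 456 deeply read members and of the other 315 gave log2 fold changes of -0.09 and -0.05 with overlap (exact permutation p = 0.7 and 1). By edgeR's quasi-likelihood test on coverage summed over the CpGs of 1 kb tiles, 0 of the 6 ribosomal tiles were called. Their log2 fold changes were -0.22 to 0.01 (lowest adjusted p = 0.727), with 0 at an unadjusted p under 0.05, and 0 were called by DESeq2. With library totals in place of TMM, without WT replicate 1 and without WT replicate 3, 2 of the 6 had an unadjusted p under 0.05, with 0 called (lowest adjusted p = 0.307, edgeR). In the genome 0.000881% of tiles were called higher and 0% lower. After Rn18s-rs5 the KO libraries, at 77.1, 77.2 and 68.4, all lay below the WT libraries, at 79.7, 87.7 and 85.8 (exact permutation p = 0.1, the smallest possible; adjusted p = 0.3 over 3 segments).

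Single positions were more often lower in KO than higher. In relative coverage 143 members (18.5%) had every KO library below every WT library and 13 (1.69%) had the reverse, where the genome had 6.96% and 6.03%. Of these, 125 and 1 were deeply read positions. The largest gap was in a strand F run from 39846075 to 39846109, at 60.4, 55.5 and 41.8 times the mean in KO and 63.6, 163 and 72.2 in WT, where WT replicate 2 stood far above the rest. Without WT replicate 2 the groups did not overlap, with KO lower, at 134 of 456 deeply read positions (29.4%) and at 11.1% of all shared CpGs. CpGs of one fragment share their reads, so these positions are not independent.

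Most of the lower positions, 111 of 125, were read on both strands, a split made after the values had been seen. Of the deeply read positions 220 had a partner on the other strand with coverage within 3-fold of their own, 214 had a partner with less than 0.1 of it or none, and 22 were between. Positions read on both strands had a mean relative coverage of 98.1, 88.6 and 75.4 in KO and 99.5, 116 and 104 in WT, without overlap (log2 fold change -0.29, exact permutation p = 0.1, the smallest possible). One by one 50.5% of these were lower in KO, against 9.39% of the CpGs elsewhere that were read on both strands. Positions read on 1 strand had 130, 145 and 136 in KO and 125, 110 and 142 in WT, with overlap (log2 fold change 0.13, exact permutation p = 0.4). Of these 5.14% were lower in KO, 11 in all, and 0.467% higher, against 2.69% lower and 9.07% higher among the CpGs elsewhere read on 1 strand.

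Outside the ribosomal unit the group means differed with the same signs, but the groups overlapped. Among CpGs elsewhere with at least 50 reads in all libraries, the 271675 read on both strands had a log2 fold change of -0.11 (exact permutation p = 0.3). The 651471 read on 1 strand had one of 0.11 (exact permutation p = 0.2). The ratio of coverage on both strands to coverage on 1 strand was 0.752, 0.613 and 0.553 in KO and 0.794, 1.05 and 0.728 in WT in the ribosomal DNA. Elsewhere it was 0.958, 0.858 and 0.779 in KO and 0.973, 1.12 and 0.937 in WT. In both places KO replicate 3 had the lowest ratio and WT replicate 2 the highest, and the groups overlapped (exact permutation p = 0.2 each). The part of this ratio in the coverage of the ribosomal positions was not tested.

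**Figure D5:**
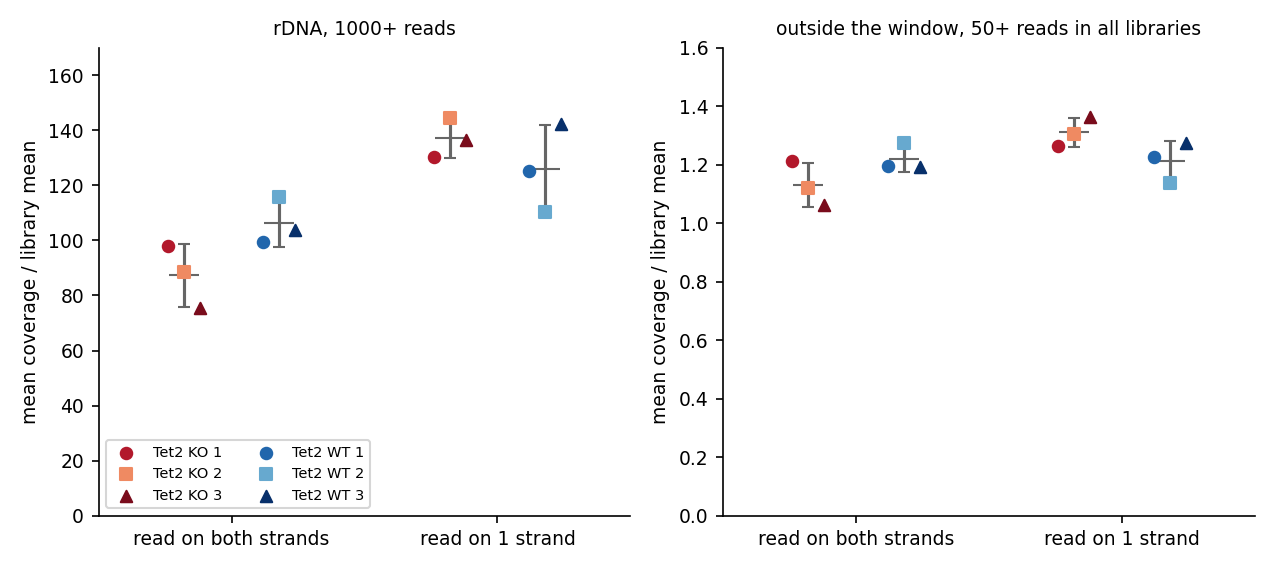
Mean coverage divided by the library's mean, for positions read on both strands and on 1 strand, in the ribosomal DNA (left panel, 1000 or more reads) and elsewhere (right panel, 50 or more reads), with KO libraries (red) left of WT libraries (blue); points are libraries and grey bars are the mean and SD of 3. On both strands the KO libraries lie below the WT libraries in the ribosomal DNA, at 75.4 to 98.1 and 99.5 to 116, and on 1 strand they overlap. Elsewhere the KO and WT libraries overlap in both classes.

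The methylation of genes that act on ribosomal DNA was read beside it, in lists of 19 genes of the polymerase I machinery, 21 of its chromatin and methylation and 20 of ribosomal RNA processing. None of their ends or bodies was called by the moderated quasi-binomial test, in either direction. In the genome 0.135% of tested gene ends were called higher and 0% lower, and 0.00844% of gene bodies in each direction. Of the covered ends 50 were under 5% methylated and 3 were tested, 1 of them at an unadjusted p under 0.05, against 12.7% of all ends tested. Of the bodies 33 were tested, 6 of them at such a p, against 11.8% of all bodies tested. The median difference of tested bodies was 2.49, 1.36 and 1.70 points in the 3 lists, against 1.09 over all 11849 bodies tested.

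Among the ends, that of Kdm2a, a histone demethylase gene, was at 6.50% ± 0.964 in KO and 4.94% ± 1.06 in WT (SD, n = 3 each; adjusted p = 0.291, moderated quasi-binomial test). The end of Sirt7, a nucleolar deacetylase gene, was at 17.1% ± 1.73 in KO and 15.4% ± 1.06 in WT, and that of Taf1b, a subunit gene of the polymerase I promoter factor, at 10.5% ± 0.873 in KO and 9.64% ± 5.32 in WT. Among the bodies, Dnmt3a, a DNA methyltransferase gene, was at 15.6% ± 0.927 in KO and 13.1% ± 0.0783 in WT. Cd3eap, a polymerase I subunit gene, was at 29.6% ± 2.83 in KO and 22.0% ± 1.004 in WT. Utp4, a gene of small-subunit processing, was at 55.4% ± 2.24 in KO and 45.3% ± 4.10 in WT. In these 3 bodies no KO library was below a WT library, and their adjusted p-values of 0.229, 0.247 and 0.266 (moderated quasi-binomial test) did not pass.

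None of 5 named regulators of ribosomal transcription passed, and 3 were below the tested range in their bodies. The body of Polr1a, the gene of the largest polymerase I subunit, was at 95.02% ± 0.599 in KO and 92.5% ± 2.43 in WT. That of Rrn3, an initiation factor gene, was at 5.96% ± 0.782 in KO and 7.45% ± 1.12 in WT (adjusted p = 0.559 for Polr1a and 0.561 for Rrn3, moderated quasi-binomial test). The bodies of Ubtf, which encodes the upstream binding factor, at 3.69% ± 0.664 in KO and 3.63% ± 0.701 in WT, and of Ttf1, a transcription termination factor gene, at 2.63% ± 0.444 in KO and 2.26% ± 0.0676 in WT, were under 5%. Baz2a, which encodes a subunit of the nucleolar remodelling complex that silences ribosomal genes, was at 0.205% ± 0.0986 in KO and 0.149% ± 0.0318 in WT over its body. The ends of Rrn3, Ttf1 and Baz2a had group means of 0.138% or less in KO and 0.369% or less in WT.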

How the data were processed

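Genomic DNA of 6 libraries was profiled, and reads were aligned with Bismark to GRCm38, per the submitters' processing notes. The sources used here do not give its version or how PCR copies and reads with several matches were treated. The deposited files give, per CpG and strand, the read count as coverage and, per the file headers, percent values for C and T, and list positions with 10 or more reads. Methylated and unmethylated counts were recovered from coverage and percent and came out whole at 100% of positions. Intervals from such counts would cover counting error only, since PCR copies are not independent molecules, and so does the limit of 3 reads used for a level of 0.

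Levels are methylated reads over C and T reads. Relative coverage is coverage over the library's mean at shared CpGs. Values per library were compared with two-sided exact permutation tests. CpGs, 1 kb tiles, gene ends and gene bodies with a mean level of 5% to 95% were tested with a quasi-binomial model whose dispersion was moderated over all features by limma's method, and called at an adjusted p (Benjamini-Hochberg) under 0.05 with means at least 10 points apart. As an alternative, levels of CpGs and tiles were tested with limma 3.58.1 on log2 ratios of methylated to unmethylated counts. Tile coverage was tested with edgeR 4.0.16 (quasi-likelihood, TMM), with DESeq2 1.42.0 as an alternative, in R 4.3.3 and Python 3.11.15. The scripts were tested on simulated data. Gene positions came from the RefSeq table of GRCm38.p6, which has no strand here; a gene end is 1 kb on either side of the end with more CpGs. All 60 listed genes matched it.

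Members and lists were chosen with earlier results of these data known. Positions named were the 8 nearest the lower end of Rn18s-rs5, the 4 with the highest and 4 with the lowest level, the 4 with the most and 2 with the least coverage, the called ones, the 3 with the smallest p not called, and the first and last member. Genes named were those called, else the 3 with the smallest p at ends and in bodies, with Ubtf, Baz2a, Ttf1, Polr1a and Rrn3. Other positions named were chosen after their values were seen. Each library was left out in turn, and dispersion, filters and scaling were varied. A marker gene of the list is not reported here.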

Additional observations from a re-analysis of the deposited data

How the results depend on the processing

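Of 116 alternative values of the main results, 103 were counted as the same, 12 as moved and 1 as reversed. A difference in level or coverage counted as the same on its sign alone, whatever its size. A number of calls did so if near the main number or 0 in both, so the 103 are a loose measure of stability. The 11 lower single-CpG calls became 0 with unmoderated dispersion, 0 with all covered CpGs tested, 0 by limma and 0 with dispersion moderated among CpGs of 1000 or more reads, the last chosen after seeing the data. In that order the whole genome had 35, 207, 0 and 0 calls, where the main test had 1544. With no overdispersion 30 members were called higher and 74 lower, 104 of 763 tested, where the genome had 108327 of 525213. With no minimum difference 1 was called higher and 45 lower, 46 of 763, where the genome had 1588 of 525213. The latter setting kept the moderated dispersion. The lowest adjusted p of any member was 0.468 with unmoderated dispersion and 0.674 by limma. Leaving out 1 library gave 2 to 13 lower calls, with 545 to 3667 calls of both directions in the genome. The cause of these shifts was not tested. The level difference over all members ranged from -3.04 to -0.700 points without 1 library. The log2 fold change in relative coverage was -0.52 by the median over members, against -0.06 by the mean. The segment after Rn18s-rs5 ranged from -2.22 to 0.122 and reversed without KO replicate 2.

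Same-numbered KO and WT libraries had correlations of deviations of -0.602, -0.346 and -0.18 over deeply read positions. Over all members these were 0.00361, 0.0136 and 0.18, the last the highest of all KO and WT pairs. Such correlations, over CpGs that share reads, cannot settle whether the samples were paired, and the main tests used no pairing. With a replicate block 0 CpGs were called, and the level difference of -1.92 points had an exact p of 0.5, where 3 pairs cannot go below 0.25. Depth limits the 315 members with under 1000 reads in some library, where the median SD over libraries was 12.6 points. Without the sequence of the unit, restriction sites and copy differences were not analysed here.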
